A study of Mus musculus with 9 samples.

Results

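Dendritic cells and lymphomyeloid progenitors of the mouse marrow were followed here through 7 genes, Siglech, Tcf4, Bst2, Irf8, Ccnd1, Ly6d and Flt3. The genes were selected by symbol from the authors' table of top marker genes, with their listed values and their appearance for several populations in view, and all 12 entries that the table holds for them were taken. They are 7 of the 234 genes and 12 of the 293 entries of that table, which covers 17 populations. Mononuclear marrow cells came from 9 C57BL/KaLwRij mice aged 12 weeks and were measured by droplet-based single-cell RNA-Seq. By label, 2 mice were Control, 3 PBS, the vehicle, and 3 CST6, and 1 mouse had no label for its agent. The label of 1 PBS mouse is uncertain, because its title follows those of the Control mice, but no value here rests on the groups. CST6 stands for recombinant mouse cystatin M/E, and the mice given PBS or CST6 had been injected with 5TGM1 myeloma cells, a mouse line marked with GFP whose cells were sorted out ahead of library preparation. Control mice received no myeloma cells. The table pools all mice, so that it compares populations with each other and not Control, PBS and CST6, and its values have no replicate error.

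Plasmacytoid dendritic cells circulate between marrow and blood and release type I interferon when they sense viral nucleic acid. They arise in the marrow from progenitors that carry the receptor FLT3, both along the common dendritic path and from lymphoid progenitors that express Ly6d. The E protein TCF4 (E2-2) establishes and maintains their identity, and IRF8 acts in the dendritic and monocyte branches of the progenitor tree.

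For 4 of the 7 genes a RefSeq window from 250 bases before to 50 bases after the gene start was at hand (GRCm38.p6), and these windows are shown because TCF4 and IRF8, the products of 2 of the 7 genes, are DNA-binding proteins. Siglech, Bst2, Irf8 and Flt3 had a window, and Ccnd1, Ly6d and Tcf4 did not. Capitals mark an E-box, CANNTG, the kind of site that TCF4 binds, or the core of an interferon-stimulated response element, GAAA followed by any 2 bases and by GAAA again, each searched on both strands. The windows read 5′ to 3′ on the strand of the gene.
Siglech (chr7:55767934-55768233, plus strand): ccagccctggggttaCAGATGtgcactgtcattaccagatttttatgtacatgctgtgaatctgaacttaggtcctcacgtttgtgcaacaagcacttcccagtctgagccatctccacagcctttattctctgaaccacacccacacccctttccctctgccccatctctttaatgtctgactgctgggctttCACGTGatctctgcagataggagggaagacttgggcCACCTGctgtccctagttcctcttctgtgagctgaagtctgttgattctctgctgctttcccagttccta
Bst2 (chr8:71537423-71537722, minus strand): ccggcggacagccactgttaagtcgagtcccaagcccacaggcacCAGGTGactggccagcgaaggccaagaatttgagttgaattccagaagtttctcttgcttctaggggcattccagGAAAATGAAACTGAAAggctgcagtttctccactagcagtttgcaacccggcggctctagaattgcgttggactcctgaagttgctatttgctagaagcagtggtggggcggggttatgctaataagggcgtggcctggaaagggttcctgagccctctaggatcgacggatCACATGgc
Irf8 (chr8:120736108-120736407, plus strand): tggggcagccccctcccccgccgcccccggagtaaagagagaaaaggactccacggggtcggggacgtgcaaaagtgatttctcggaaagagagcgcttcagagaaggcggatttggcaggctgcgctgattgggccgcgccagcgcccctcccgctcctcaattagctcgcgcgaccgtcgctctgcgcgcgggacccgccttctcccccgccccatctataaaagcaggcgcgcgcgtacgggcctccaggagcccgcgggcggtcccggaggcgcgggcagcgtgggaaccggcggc
Flt3 (chr5:147400440-147400739, minus strand): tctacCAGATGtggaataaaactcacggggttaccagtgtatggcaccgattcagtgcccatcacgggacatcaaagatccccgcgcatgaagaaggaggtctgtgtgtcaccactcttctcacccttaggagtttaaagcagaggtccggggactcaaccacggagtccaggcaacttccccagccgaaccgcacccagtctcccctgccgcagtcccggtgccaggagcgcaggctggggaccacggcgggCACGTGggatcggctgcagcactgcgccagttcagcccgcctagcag

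The Siglech window held 3 E-boxes, with first bases at -235, -56 and -20 from the gene start. The Bst2 window held 2 E-boxes, at -205 and 43, and 2 response element cores at -130 and -124 that overlap in 1 run of bases. The Flt3 window held 2 E-boxes, at -245 and 4. The Irf8 window shown held no match and was 70% G and C, whereas a window at another annotated Irf8 start, chr8:120738389-120738688, held 2 E-boxes at -205 and -193. E-boxes were thus present in 3 of the 4 windows shown and in 4 of 5 with the further Irf8 start, beside 72.3% of all 32851 windows. Among all windows, 3.44% held a response element core. A further motif, GGAA followed by any 2 bases and by GAAA, to which IRF and ETS factors bind together, was in 2.72% of all windows and in 0 of the 5 windows of these genes. Letters in a window do not show that a protein binds there.

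Of the 7 genes, 6 were listed for Dendritic cells, 4 for Lymphomyeloid prog I, and 1 each for Lymphomyeloid prog II and B cells. Of all 234 genes, 20 were listed for Dendritic cells, 6 for Lymphomyeloid prog I, and 20 each for Lymphomyeloid prog II and B cells. The 7 genes had been chosen with these lists in view, so their counts are a description. Irf8, Bst2 and Ccnd1 were listed for Dendritic cells and Lymphomyeloid prog I. Ly6d was listed for Dendritic cells and B cells, and Flt3 for both lymphomyeloid progenitor populations but not for Dendritic cells. Siglech and Tcf4 were listed for Dendritic cells alone. More than 1 population was therefore given for 5 of the 7 genes, beside 50 of all 234 genes (21.4%); the genes had been chosen with this sharing known, and the share is a description. Each population was compared by the authors with all remaining cells, and the table ends at an area under the receiver operating characteristic curve (AUC) of 0.801 and at 20 genes a population. An AUC of 1 means that the level of the gene alone separates the population from the other cells. Where a gene was not listed, it was not among the top entries of that population, and its level there is unknown.

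**Figure D1:**
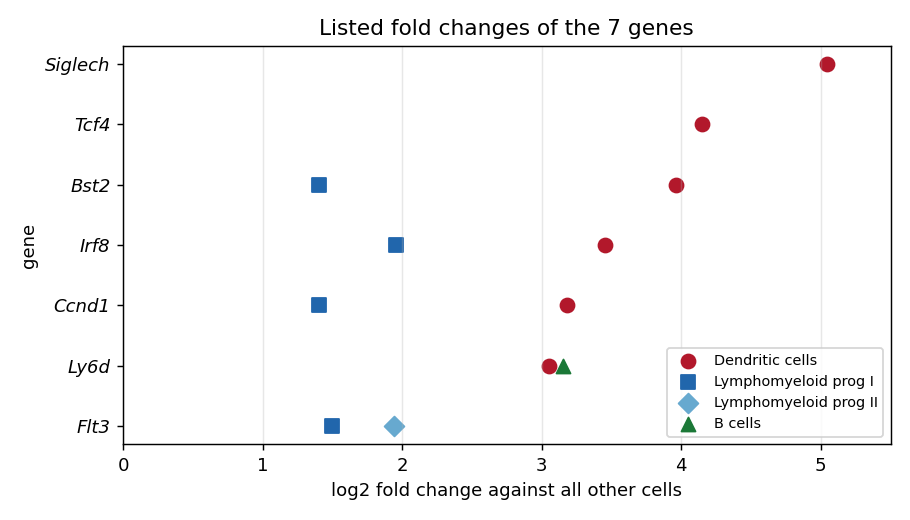
Log2 fold change (x axis) of each of the 7 genes (y axis) in every population for which it was listed, with 1 symbol and color per population; values are the authors', for all mice pooled. Dendritic cells (red circles) sit between 3.05 and 5.04, Lymphomyeloid prog I (blue squares) between 1.40 and 1.95.

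Among surface genes, Siglech, a sialic acid-binding lectin restricted largely to plasmacytoid dendritic cells in the mouse, led the Dendritic list. Its listed log2 fold change was 5.04, about 33.0-fold, and its AUC 0.997, which is the second highest AUC of the 293 entries. A value above 0 was present in 99.9% of Dendritic cells and in 37.6% of all other cells. Only 1 of the 20 genes of the list had a lower share among other cells than Siglech. Bst2, the interferon-inducible tetherin that antibodies to mouse plasmacytoid cells recognize, stood at a log2 fold change of 3.96 and an AUC of 0.994 in Dendritic cells. All Dendritic cells (100%) and 67.5% of the others were above 0 for it. In Lymphomyeloid prog I the listed log2 fold change of Bst2 was 1.40 and its AUC 0.822, with 96.5% of cells above 0 inside and 68.5% outside. Bst2 was thus above 0 in nearly all cells of both populations and in most cells elsewhere, which cannot be read as expression there. Its listed fold changes differed while these shares were close.

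The transcription factor genes were Tcf4 and Irf8. Tcf4 had a log2 fold change of 4.15 in Dendritic cells, the second in that list after Siglech, and an AUC of 0.988. It was above 0 in 99.9% of Dendritic cells and in 70.5% of all others. Irf8 had a log2 fold change of 3.46 and an AUC of 0.984 in Dendritic cells, with 100% of cells above 0 inside and 72.4% outside. It also led the list of Lymphomyeloid prog I, at a log2 fold change of 1.95 and an AUC of 0.840, with 97.3% inside and 73.3% outside. Of 9 interferon regulatory factor genes, Irf8 was the only 1 listed for any population. Of 6 E protein and Id protein genes, 2 were listed, Tcf4 and Tcf3, the latter for Pre/pro B cells at 2.20.

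Ccnd1 and Flt3 bear on growth. Ccnd1, which codes for cyclin D1 of the G1 phase, had a log2 fold change of 3.18 and an AUC of 0.920 in Dendritic cells, where 93.2% of cells were above 0 against 47.3% elsewhere. In Lymphomyeloid prog I it stood at 1.40 with an AUC of 0.802, with 83.2% inside and 49.0% outside. Another D-type cyclin gene, Ccnd2, was listed for Lymphomyeloid prog II at 1.74 and for T/NK cells at 2.33. Of the 12 genes in the list of D cyclins and the G1 phase, 3 were listed, the third being Cdk6, at 2.16 in Lymphomyeloid prog II, 2.17 in Myeloid prog and 2.74 in Eosinophil/Basophil prog. Flt3, the receptor of FLT3 ligand on early lymphoid and dendritic progenitors, stood at 1.94 with an AUC of 0.870 in Lymphomyeloid prog II and at 1.499 with an AUC of 0.826 in Lymphomyeloid prog I. It was above 0 in 90.2% and 85.3% of the cells of these populations and in 51.9% and 51.2% of the respective other cells. Csf1r, a receptor kinase gene of the same class, was listed for Monocytes only, at 2.20.

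Ly6d, a lipid-anchored surface protein of lymphoid progenitors and B cells, was nearly level between its populations. In Dendritic cells its log2 fold change was 3.05 and its AUC 0.923, with 95.5% of cells above 0 inside and 58.0% outside. In B cells its log2 fold change was 3.16 and its AUC 0.919, with 95.7% inside and 59.3% outside. By fold change B cells were higher by 0.10 on the log2 scale, whereas by AUC Dendritic cells were higher by 0.004, and the direction therefore depends on the score. Of 9 Ly6 family genes, 4 were listed. Ly6a, the stem cell antigen Sca-1, stood at 3.71 in Dendritic cells, Ly6g at 1.99 in Mature Neutrophils I and Ly6e at 1.40 in Monocytes, and Ly6d was the only 1 of the 4 with more than 1 population.

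**Figure D2:**
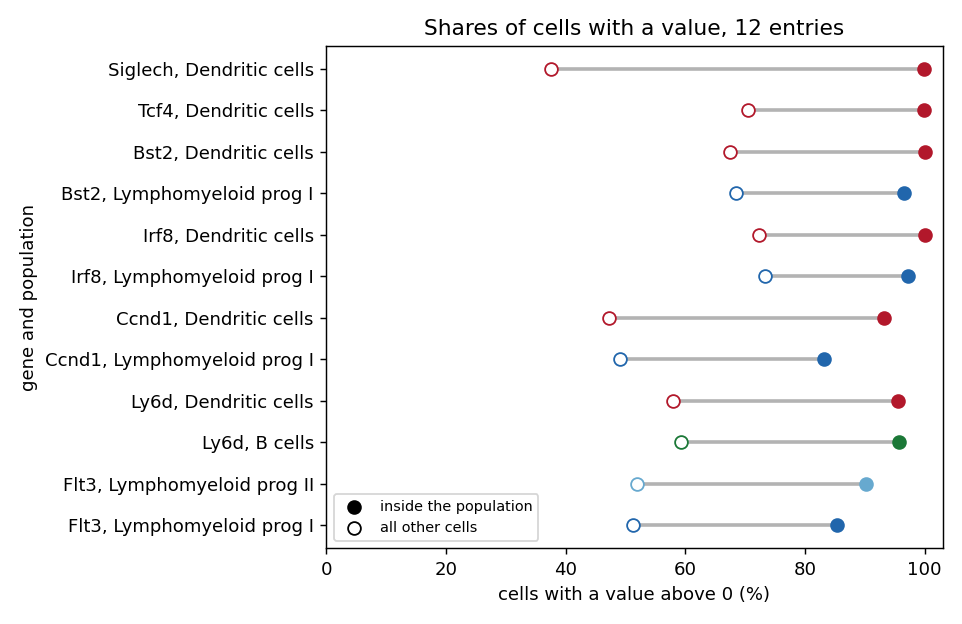
Percentage of cells with a value above 0 (x axis) for the 12 entries of the 7 genes (y axis), inside the population (filled circle) and among all other cells (open circle), colored by population. Siglech has the widest gap, 62.3 percentage points, and Irf8 in Lymphomyeloid prog I the narrowest, 24.0 points.

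Presence and level gave the genes a different order. Siglech had the largest ratio of shares of the Dendritic list, with a log2 ratio of 1.41 between the share inside and the share outside. For Tcf4 the log2 ratio of shares was 0.50 beside a log2 fold change of 4.15, for Bst2 0.57 beside 3.96 and for Irf8 0.47 beside 3.46. Tcf4, Bst2 and Irf8 took ranks 2, 3 and 7 of 20 in that list by fold change but ranks 18, 15 and 19 by the ratio of shares, and they were the 3 genes of the list found in the most other cells. When the log2 ratio of shares was subtracted from the log2 fold change, 3.65 was left for Tcf4, 3.63 for Siglech, 3.39 for Bst2 and 2.99 for Irf8, beside a median of 2.37 over the Dendritic list and 1.51 over all 293 entries. For Lymphomyeloid prog I the same difference was 1.55 for Irf8, 0.91 for Bst2, 0.76 for Flt3 and 0.64 for Ccnd1. Whether the authors took these values before or after batch integration is not stated, and a share above 0 among other cells cannot be read as expression.

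The Dendritic list held 20 genes, and its 6 members had a median log2 fold change of 3.71 beside 3.11 for the other 14. The members were chosen with their listed values in view, so this difference is a description. The list of 20 plasmacytoid genes used here had 7 entries in it, the members Siglech, Tcf4, Bst2, Irf8 and Ly6d together with the chemokine receptor gene Ccr9 at 3.83 and Cox6a2 at 3.68. An eighth gene, Ptprs, was listed for Eosinophil/Basophil prog. Of 13 genes of conventional dendritic cells or of MHC class II, 3 were listed, all for Dendritic cells, namely Cd74, the invariant chain, at 3.18, and the class II chains H2-Ab1 at 3.04 and H2-Aa at 3.03. The further genes of the list were Rnase6 at 3.29, Lair1 at 3.32, the cathepsin gene Ctsl at 3.24, Klk1 at 2.96, Pltp at 2.89, the kinase gene Fyn at 2.88, Atp1b1 at 2.80 and Tspan13 at 2.74. Of 15 interferon response genes, 5 were listed for some population, and Bst2 was the only 1 of them among the Dendritic genes and among those of Lymphomyeloid prog I. Of 12 B cell genes, 8 were listed for B cells and 1, Ly6d, for Dendritic cells. No gene of the T and NK cell (8), monocyte and macrophage (7), neutrophil (6), plasma cell (5) or erythroid (5) lists was among the 20.

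The list of Lymphomyeloid prog I was short, with 6 genes, of which 4 were Irf8, Flt3, Bst2 and Ccnd1. The remaining 2 were Cbfa2t3, a transcriptional corepressor of hematopoietic progenitors, at 1.58 and the galectin gene Lgals1 at 1.80, which was also listed for Monocyte prog II. Its AUC values ran from 0.801 to 0.840, all below the lowest AUC of the Dendritic list, 0.857. Ccnd1, at 0.802, lay just inside the end of the table, and genes just outside it are not shown. Of 13 lymphoid-primed progenitor genes, 1 was listed for Lymphomyeloid prog I, Flt3, and 2 for Lymphomyeloid prog II, Flt3 and Cd34 at 2.05. Dntt, Il7r, Rag1 and Rag2, which mark lymphoid commitment, were not listed for any of the 17 populations. Flt3 was thus the only gene of the lymphoid-primed list among the top entries of Lymphomyeloid prog I. The study's supplement gives Irf8 and Flt3 as markers of this population.

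**Figure D3:**
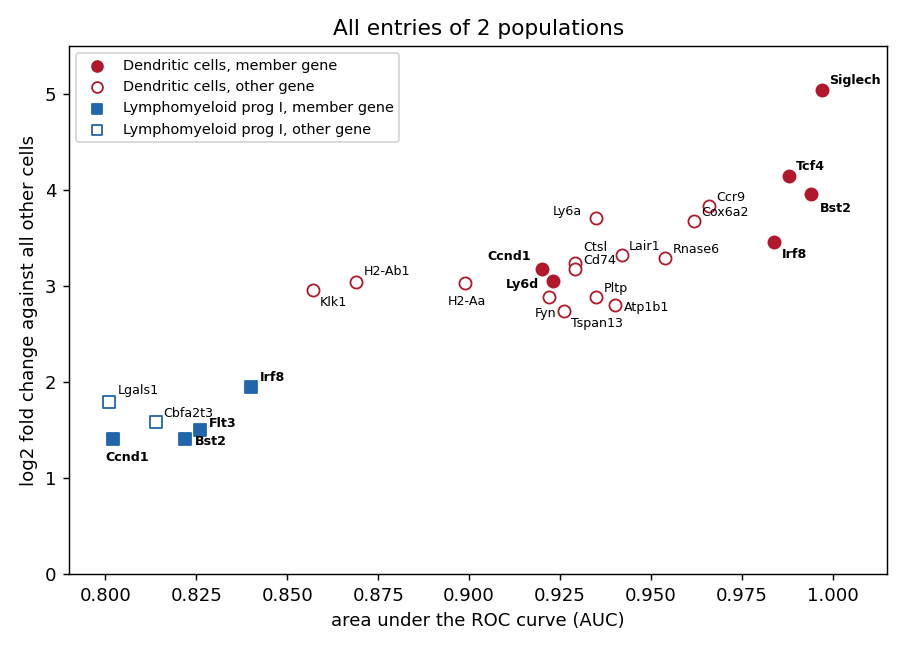
AUC (x axis) and log2 fold change (y axis) of all 20 genes listed for Dendritic cells (circles) and all 6 listed for Lymphomyeloid prog I (squares), with the 7 genes followed here filled and in bold. Siglech, Tcf4, Bst2 and Irf8 form the upper right corner, and every entry of Lymphomyeloid prog I lies below an AUC of 0.85 and a log2 fold change of 2.

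Dendritic cells and Lymphomyeloid prog I shared 3 genes, which is 15% of the Dendritic list and 50% of the shorter one, of only 6 genes. The genes followed here were chosen with this sharing known, so it is a description. Irf8, Bst2 and Ccnd1 were also the only 3 genes of the table listed for exactly these populations. Dendritic cells and B cells shared 1 gene, Ly6d, 5% of each list, and no other gene of the table had that pair of populations. The lymphomyeloid populations shared Flt3, 16.7% of the list of I and 5% of the list of II. Dendritic cells shared 0 genes with Lymphomyeloid prog II and 0 with Pre/pro B cells. Of the 20 genes of the Dendritic list, 4 were also listed for another population, beside 50 of all 234 genes of the table (21.4%). All 4 belonged to the genes followed here. These had been chosen with their appearance for several populations in view, so this too is a description.

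The listed fold changes of a gene in a pair of populations do not have the same baseline, because the other cells of Lymphomyeloid prog I include the Dendritic cells and the reverse. The size of this effect depends on how many cells each population held, which the table does not state. It can be bounded, since the share inside a population and the share among all other cells must give the same share over all cells for every gene that was listed more than once. Such equations, 69 from 50 genes, had a joint solution within 0.1 percentage points, the rounding of the shares, and even within 0.071 points. With the shares of the 17 populations summing to 100%, Dendritic cells held 5.80% to 7.22% of all cells, Lymphomyeloid prog I 2.98% to 4.51%, Lymphomyeloid prog II 0.970% to 1.98% and B cells 2.63% to 3.97%. These ranges cover the rounding of the table only and not the spread between mice. Within them Dendritic cells were above Lymphomyeloid prog I, whereas Lymphomyeloid prog I and B cells overlapped. The range of Dendritic cells rests on the genes followed here. It widened to 0% to 22.6% without them and to 4.13% to 10.05% from Irf8, Bst2 and Ccnd1 alone. Without the genes followed here the range reaches 0%, so the order of Dendritic cells and Lymphomyeloid prog I is not fixed there. From Irf8, Bst2 and Ccnd1 alone, the matching range of Lymphomyeloid prog I was not computed, so no order is given.

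**Figure D4:**
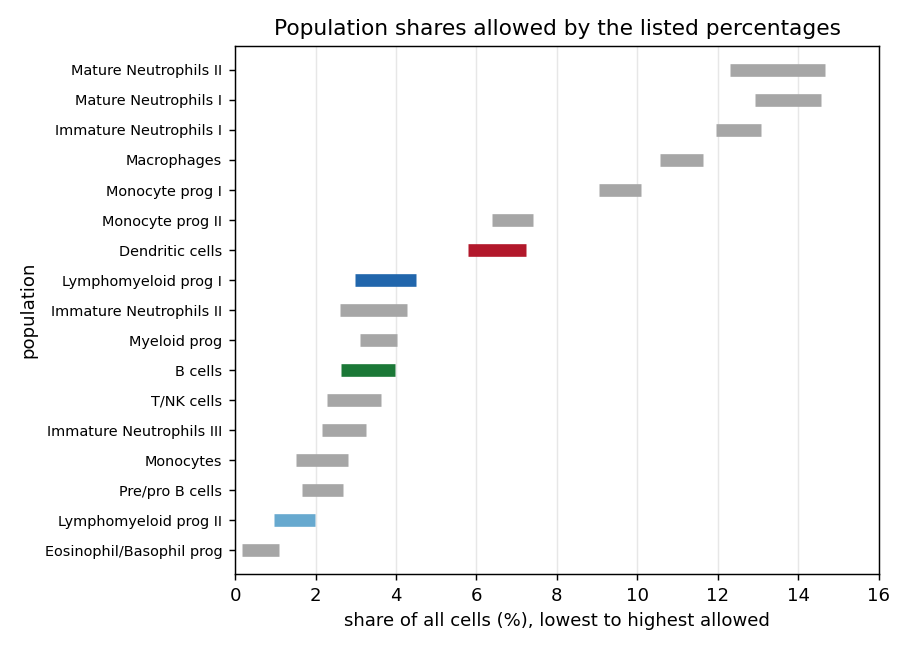
Lowest to highest share of all cells (x axis, percent) that the listed percentages allow for each of the 17 populations (y axis), with Dendritic cells in red, Lymphomyeloid prog I and II in dark and light blue and B cells in green. Dendritic cells span 5.80% to 7.22%, above both lymphomyeloid populations and B cells, but 0% to 22.6% without the 7 genes.

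From the main ranges followed the share of all cells with a value above 0 for each gene. The narrow spans below rest on the genes followed here, as the main ranges do. They were not computed with the wider range of Dendritic cells found without these genes. Siglech was above 0 in 41.2% to 42.2% of all cells, Tcf4 in 72.2% to 72.7%, Bst2 in 69.3% to 69.8% and Irf8 in 74.0% to 74.4%. Ccnd1 was above 0 in 49.97% to 50.6%, Ly6d in 60.2% to 60.8% and Flt3 in 52.2% to 52.7%. In cells outside Dendritic cells and Lymphomyeloid prog I, Irf8 was above 0 in 70.6% to 72.1%, Bst2 in 65.4% to 67.02% and Ccnd1 in 44.7% to 46.8%. Outside Dendritic cells and B cells, Ly6d was above 0 in 55.7% to 57.6%. All 7 genes were thus above 0 in a large part of the marrow cells that belong to none of the populations listed for them. These shares cannot be read as expression, because it is not stated whether they were taken before or after batch integration.

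On a common baseline, with the main ranges of the population shares, the shared genes stayed higher in Dendritic cells than in Lymphomyeloid prog I. The step was smaller than the listed values give. This step rests on the fold change being a ratio of mean levels plus a constant, as in Seurat, which was not tested. It also rests on population shares that were themselves bounded by the listed shares of these genes. The levels were not computed with the wider shares found without these genes, so the size and direction of the step are not fixed there. Whether the fold changes were taken before or after batch integration is not stated either. The steps below therefore cannot be read as ratios of expression. For Irf8 the listed values differ by 1.503 on the log2 scale, while the level in Dendritic cells over that in Lymphomyeloid prog I came to 0.84 to 1.020, or 1.79-fold to 2.03-fold. For Bst2 the listed difference of 2.56 became 1.59 to 1.78, or 3.01-fold to 3.43-fold. For Ccnd1 the listed difference of 1.78 became 1.18 to 1.33, or 2.27-fold to 2.51-fold. By level, Irf8 thus had the smallest step between these populations and Bst2 the largest. Other scores gave another order. The difference in AUC was 0.118 for Ccnd1, 0.144 for Irf8 and 0.172 for Bst2, and the share of cells above 0 inside the population differed by 10 percentage points for Ccnd1, 3.5 for Bst2 and 2.7 for Irf8. Ccnd1 was therefore the smallest by AUC and the largest by share.

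With the same population shares, the difference of Lymphomyeloid prog I against the cells in neither population was larger than listed. Irf8 stood there at 2.73 to 2.98 on the log2 scale in place of the listed 1.95, Bst2 at 2.40 to 2.67 in place of 1.40 and Ccnd1 at 2.02 to 2.19 in place of 1.40. The same values for Dendritic cells were 3.69 to 3.87 for Irf8, 4.14 to 4.30 for Bst2 and 3.32 to 3.41 for Ccnd1. Ly6d was lower in Dendritic cells than in B cells on the common baseline, at -0.44 to -0.22, beside a listed difference of -0.10. The population shares used rest on the genes followed here, Ly6d among them. With the wider shares found without these genes the Ly6d difference was not computed, so its direction is not fixed there. Flt3 in Lymphomyeloid prog II stayed above Lymphomyeloid prog I, at 0.44 to 0.52 beside a listed 0.44. None of these differences could be set against a spread between mice.

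**Figure D5:**
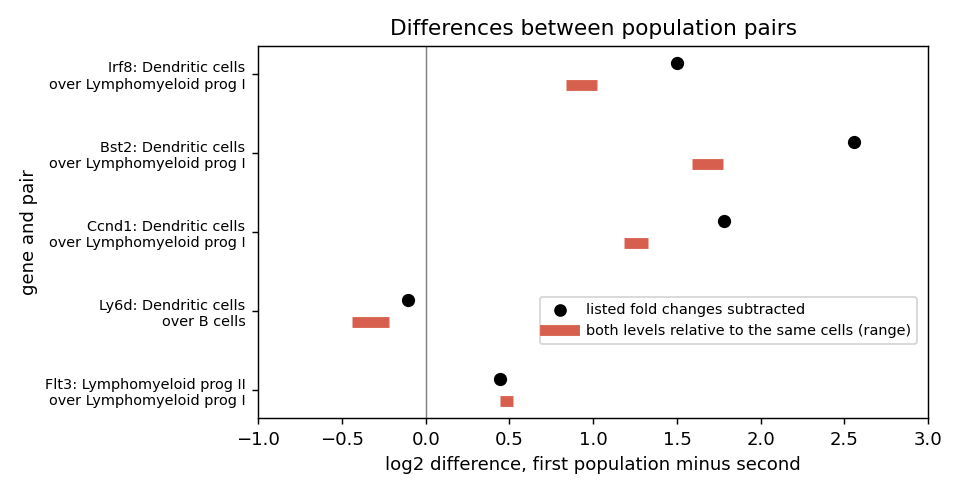
Log2 difference between a pair of populations (x axis) for the 5 genes listed for more than 1 population (y axis), as the plain difference of the listed fold changes (black points) and with both levels relative to the same cells (red bars, lowest to highest). For Irf8, Bst2 and Ccnd1 the bars lie left of the points and above 0, and for Ly6d the bar runs from -0.44 to -0.22. The bars use the main ranges of the population shares, which rest on the genes followed here.

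In the GENCODE annotation of GRCm38 (mm10), the build of the submitters, all 7 are protein-coding genes. Siglech lies on chromosome 7 from 55768178 to 55778925 and Ccnd1 on the same chromosome from 144929931 to 144939925. Bst2 lies on chromosome 8 from 71534255 to 71537456 and Irf8 on the same chromosome from 120736358 to 120756694. Flt3 lies on chromosome 5 from 147330741 to 147400489, Ly6d on chromosome 15 from 74762056 to 74763620 and Tcf4 on chromosome 18 from 69343356 to 69689079. Tcf4 spans 345724 bases and Ly6d 1565, the longest and shortest of the 7. The 3 genes shared by Dendritic cells and Lymphomyeloid prog I lie on 2 chromosomes, 7 and 8.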

How the data were processed

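Marrow mononuclear cells of 9 mice had been run on the 10x Genomics platform, and the tools named in the submitters' processing notes are Cell Ranger and Seurat 4, with the build mm10. Per the study's methods, samples were integrated by reciprocal principal component analysis and clustered, and markers of each cluster were sought over all mice. The methods name MAST, whereas the columns are those of Seurat's ROC test; how doublets were handled is not stated.

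The deposited table gives per entry 2 scores (AUC and power), an average difference on the natural log scale, a log2 fold change and the fraction of cells above 0 inside and outside the cluster, all computed by the authors. Power equalled 2 × AUC − 1, and the natural log difference the log2 value times the natural log of 2, in all 293 deposited entries within 1e-09. It has 6 columns of pooled values and 0 per sample, so no test was run, and the table gives no depth or cell numbers. The columns are the authors' own comparisons, printed here as their values. Cluster names were made uniform in punctuation.

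Bounds on the share of cells per population came from linear programming (scipy 1.17.1) over all genes listed more than once, with a tolerance of 0.1 percentage points for shares rounded to 3 decimals. Levels on a common baseline were then solved over a grid of 41 values per share. The procedure was tested on cells made with known shares. Their fold changes had the form that the procedure assumes, so the test does not show that the authors' values have it. Promoter windows were RefSeq's (GRCm38.p6), and gene positions GENCODE M21. Genes named are the 7 members, the listed genes of the gene lists, and all genes of Lymphomyeloid prog I. A few genes outside this rule, the further genes of the Dendritic list, were named after their values were seen. Members and lists were chosen with earlier results of these data known. Alternatives were other scores, fewer entries, other equations, and other motif letters or windows.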

Additional observations from a re-analysis of the deposited data

How the results depend on the processing

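Irf8, Bst2 and Ccnd1 were higher in Dendritic cells than in Lymphomyeloid prog I by all 4 other scores. By AUC and fold change this was fixed for any shared gene, because the lists do not overlap. The lowest Dendritic values were 0.857 and 2.74, the highest of Lymphomyeloid prog I 0.840 and 1.95. The remaining scores all come from the same listed shares, so the agreement is a description. The 3 genes were also higher on the common baseline, added after the data were seen, with the main ranges of the population shares. Those ranges rest on the members, and the common baseline was not computed with the wider ranges. The number of members in the Dendritic list was 6, and it stayed 6 with only entries of an AUC of at least 0.9. It fell to 4 with the 10 entries of highest AUC and also with the 10 of highest log2 fold change. Ccnd1 and Ly6d, both listed for more than 1 population, were the members lost. With only entries of an AUC of at least 0.9, 1 member was listed for more than 1 population, and Dendritic cells and Lymphomyeloid prog I shared 0 genes. With the 10 entries of highest AUC per population, 3 members had more than 1 population, with the 10 of highest log2 fold change 2, and in both cases Dendritic cells and B cells shared 0 genes.

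For Ly6d, Dendritic cells minus B cells turned to 0.004 by AUC, 1.1 percentage points by the gap between shares and 0.029 by their log2 ratio; the share inside the population gave -0.2 points and the common baseline -0.44 to -0.22. For Flt3, Lymphomyeloid prog II minus I was 0.044 by AUC, 4.9 points by the share inside, 4.2 points by the gap, 0.061 by the log2 ratio and 0.44 to 0.52 on the common baseline. The median rank of the members in the Dendritic list, 5 by fold change, was 3.5 by AUC, 13.5 by the gap and 13 by the ratio of shares.

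Dendritic cells held 4.13% to 10.05% of cells from the 3 shared genes alone, 4.94% to 8.10% with a tolerance of 0.2 points, and 0% to 22.6% without the members, so that the range rests on them. Counted by gene over any of its windows, 4 of the 4 genes with a window held an E-box, beside 72.3% of all windows. With only the letters CAGCTG or CACCTG it was 3 of 4 genes, beside 32.9% of all windows. With only the part before the gene start it was 4 of 4 genes, beside 66.2%. No paired analysis was possible because the table holds no values per sample. The table gives no depth, no cell numbers and no spread between mice, so that no value here has a replicate error.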
